A study of Mus musculus with 9 samples.

Results

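The 10 genes described here encode the core of the adherens junction: the classical cadherins Cdh1, Cdh2 and Cdh3, the catenins Ctnna1, Ctnnb1 and Ctnnd1, and the nectins Nectin1, Nectin2, Nectin3 and Nectin4. They were taken by name from a table of 54453 Ensembl genes, and all 10 passed the filter on low counts that left 16169 genes for testing. RNA-seq was run on whole primary pancreatic tumors of KPC mice, a genetically engineered model of pancreatic cancer that depends on Cre recombinase. Per the labels, 4 tumors were Scrib WT, genotype KPF/+C (tumors 2, 3, 6 and 9), and 5 were Scrib null, genotype KPF/+CSF/F (tumors 7, 14, 15, 18 and 23), so the groups share the KPF/+C background and differ in SF/F. Scrib encodes a scaffold of apical-basal polarity, and the comparison asks what differs in tumors labelled as lacking it. The promoter that drives Cre, the age of the mice and whether each tumor came from its own mouse are not stated in the labels, so p-values measure only the spread between these tumors.

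Cadherins are calcium-dependent adhesion receptors that bind the same cadherin on a neighbouring cell. Their cytoplasmic tail holds p120-catenin near the membrane and beta-catenin further along. Beta-catenin in turn binds alpha-catenin, which reaches actin. Nectins are immunoglobulin-like receptors that pair within and across cells, bind actin through afadin and often mark a contact before cadherins gather there. In carcinoma a loss of E-cadherin with a gain of N-cadherin is the textbook cadherin switch, and P-cadherin is common in pancreatic cancer cells.

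Total estimated counts ran from 10145830 to 27596832 per tumor, and the smallest count of any of the 10 genes was 6, for Nectin3 in tumor null 7. The 100 most abundant genes took 32.5% of counts in WT 3 and 25.8% in WT 6, against 18.8% to 22.9% elsewhere. WT 3 and null 7 lay apart on the first pair of principal components. Xist and Y-linked genes marked 3 WT and 3 null tumors as female, and WT 3, null 7 and null 18 as male. Epithelium was present in each tumor, since all 16 epithelial markers were detected in every one, with a mean level of 8.39 ± 0.31 log2 CPM (SD, n = 4) in the WT and 8.63 ± 0.26 (SD, n = 5) in the null group (exact two-sided permutation p = 0.270). CPM is the count scaled to library size, after TMM scaling. The targeted gene did not separate the groups, at 70.5 ± 21.4 and 60.3 ± 24.6 CPM for Scrib (SD, n = 4 and 5; edgeR adjusted p = 0.712), and null 7 had the most of the 9 tumors, 102 CPM, so every direction below is between tumors as labelled.

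Promoter sequences from RefSeq (GRCm38.p6) were matched by symbol for 5 of the 10 genes: Ctnnb1, Ctnnd1, Nectin2, Nectin3 and Nectin4. Those of the nectins are shown because the nectins run from one of the abundant genes of the 10 to the scarcest, and that of Ctnnb1 because its mRNA was the most abundant of the 10 per length. Each is the longest stretch of the 250 bases before the start site that no GENCODE M21 exon covers, read 5′ to 3′ on the strand of the gene. The Nectin4 stretch ends 74 bases before its start site. The start used for Ctnnb1, 120933400, lies inside the gene span given below. A further RefSeq start of Ctnnb1, 120933578, left a stretch of 72 bases with 2 GC boxes, all within the stretch shown. Capitals mark GC boxes (GGGCGG, the motif bound by SP factors, either strand) and the E-box CACCTG (either strand), the kind bound by Snail and ZEB repressors. The windows are chr7:19749574-19749823 (minus strand) for Nectin2, chr16:46496968-46497217 (minus) for Nectin3, chr1:171369923-171370098 (plus) for Nectin4 and chr9:120933150-120933399 (plus) for Ctnnb1.
Nectin2: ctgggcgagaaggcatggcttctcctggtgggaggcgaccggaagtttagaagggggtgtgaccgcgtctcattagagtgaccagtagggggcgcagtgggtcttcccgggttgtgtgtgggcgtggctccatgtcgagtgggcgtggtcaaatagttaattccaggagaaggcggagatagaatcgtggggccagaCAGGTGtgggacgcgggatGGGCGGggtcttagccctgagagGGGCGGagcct
Nectin3: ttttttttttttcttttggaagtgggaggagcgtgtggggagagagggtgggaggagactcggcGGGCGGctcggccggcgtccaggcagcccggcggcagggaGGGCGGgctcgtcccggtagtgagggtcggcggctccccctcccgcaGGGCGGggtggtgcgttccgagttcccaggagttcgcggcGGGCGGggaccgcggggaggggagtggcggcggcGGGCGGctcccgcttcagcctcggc
Nectin4: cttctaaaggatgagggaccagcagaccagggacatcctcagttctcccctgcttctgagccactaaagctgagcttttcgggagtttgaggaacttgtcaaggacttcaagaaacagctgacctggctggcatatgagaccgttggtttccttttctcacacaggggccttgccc
Ctnnb1: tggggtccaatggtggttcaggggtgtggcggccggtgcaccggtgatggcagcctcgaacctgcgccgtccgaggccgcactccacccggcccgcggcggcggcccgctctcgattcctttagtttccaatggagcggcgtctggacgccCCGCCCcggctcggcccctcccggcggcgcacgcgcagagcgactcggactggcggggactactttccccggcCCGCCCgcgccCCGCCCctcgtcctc
The Ctnnb1 and Nectin3 stretches are rich in CpG, with 35 and 30 CpG in 250 bases, beside a median of 6 over all 32851 RefSeq promoter windows of that length. Nectin2 had 16 CpG in 250 bases, and Nectin4 had 2 in its shorter stretch of 176 bases. GC boxes numbered 5 in Nectin3, 3 in Ctnnb1, 2 in Nectin2 and 0 in Nectin4, while 32.7% of all 250-base windows and 20.4% of all 176-base windows held one or more. The only E-box CACCTG among the 4 stretches was in Nectin2, at 53 bases before its start, written CAGGTG on the strand shown. Of all 250-base windows 17.2% held this motif. Windows of similar CpG content belonged to genes at opposite ends of the range per kilobase of merged exons, where Ctnnb1 was the most and Nectin3 the least abundant of the 10. Over the median length of coding transcripts Nectin3 was not the least abundant, at 9.98 CPM per kb against 3.34 for Cdh2. Over the longest coding transcript it was, at 1.02 against 2.98 for Cdh2.

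Per kilobase of merged exons, the 10 genes divided into an upper set of 5 and a lower set of 5. Ctnnb1 stood at 169 ± 60.7 CPM per kb in the WT and 256 ± 45.7 in the null group (SD, n = 4 and 5), Cdh1 at 158 ± 28.7 and 199 ± 47.7, Ctnna1 at 64.8 ± 32.6 and 112 ± 22.6, Ctnnd1 at 58.5 ± 31.4 and 93.7 ± 32.5, and Nectin2 at 55.5 ± 9.54 and 74.1 ± 12.5. Next came Cdh3 at 6.78 ± 2.99 and 7.94 ± 4.52, Nectin4 at 5.74 ± 3.60 and 8.12 ± 5.13, Nectin1 at 4.07 ± 1.80 and 5.76 ± 0.85, Cdh2 at 2.42 ± 2.74 and 1.28 ± 0.89, and Nectin3 at 1.03 ± 0.47 and 0.489 ± 0.403 CPM per kb. Nectin2 lay above Cdh3 in 9 of 9 tumors, by 3.32 ± 1.01 on the log2 scale (SD, n = 9), and Cdh1 above Ctnna1 in 9 of 9. Several neighbours in this order did not differ beyond their spread: Ctnnb1 and Cdh1 (0.23 ± 0.42 log2, in order in 5 of 9 tumors), Ctnna1 and Ctnnd1 (6 of 9), Ctnnd1 and Nectin2 (5 of 9), Cdh3 and Nectin4 (7 of 9) and Nectin4 and Nectin1 (6 of 9). Each tumor thus held far more E-cadherin than P- or N-cadherin mRNA, and 1 abundant nectin. Over the longest coding transcript of each gene, a length not planned in advance, the order of mean levels was the same. Cdh1 was at 187, Ctnna1 at 156, Cdh2 at 2.98 and Nectin3 at 1.02 CPM per kb. It changed over the median length. Over the median length of coding transcripts, mean levels in the 9 tumors were 1411 CPM per kb for Ctnnb1, still the highest, 764 for Ctnna1, then above Cdh1 at 217, and 9.98 for Nectin3, then the highest of the lower set, with Cdh2 lowest at 3.34.

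**Figure D1:**
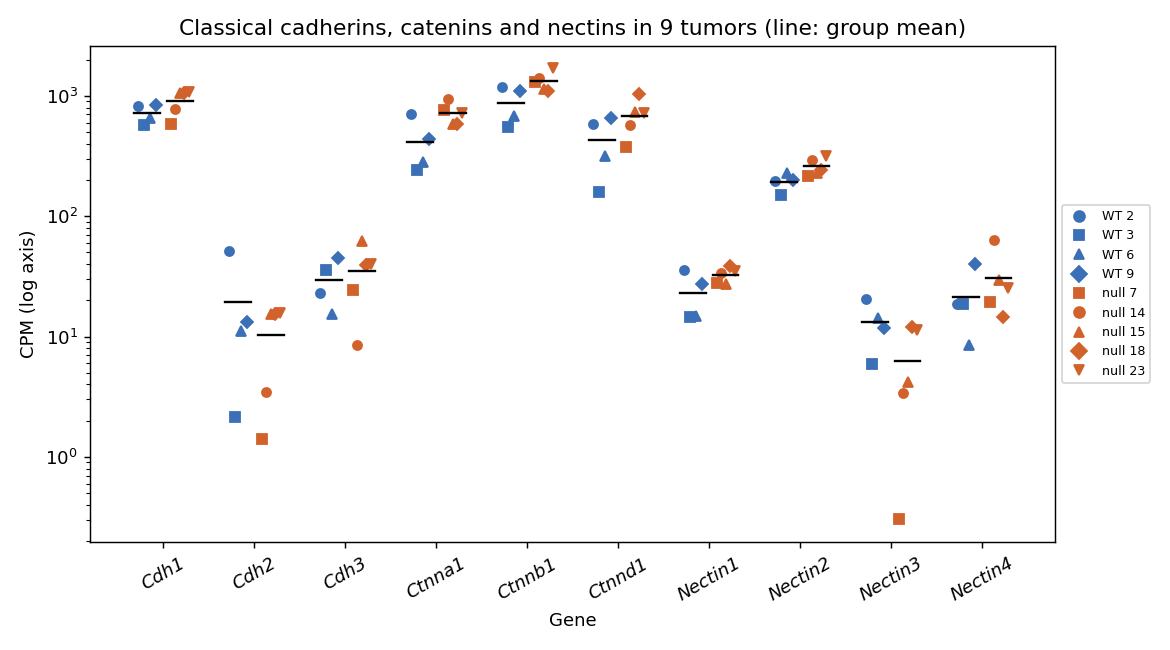
CPM of each gene (log axis) in each of the 9 tumors, blue for Scrib WT and orange for Scrib null, with one marker shape per tumor and a line at each group mean. The groups overlap for all 10 genes, and tumor null 7 sits lowest for Cdh2 (1.41 CPM) and Nectin3 (0.303 CPM).

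Between the groups none of the 10 genes reached an adjusted p below 0.05 in edgeR (quasi-likelihood test, Benjamini-Hochberg adjustment over all genes tested). Of all 16169 genes 0% passed as higher in the null group and 0.0124% as lower. The groups overlapped for 10 of the 10 genes, while over all genes 3.42% were higher in the null group with no overlap and 3.49% lower. Fold changes were above 0 for 8 of the 10, against 47.8% of all genes, and below 0 for 2, against 52.2%, with a median log2 fold change, null over WT, of 0.46 against -0.03 over all genes. At an unadjusted p under 0.05 edgeR listed 1 of the 10 as higher, the alpha-catenin gene Ctnna1, and 0 as lower, where 7.64% and 10% of all genes were listed. That count was 0 when WT 3, WT 6, WT 9, null 14 or null 23 was left out, and 3 without WT 2. Over all genes, 1786 of 16665 were higher at that p without WT 2. Without WT 3, WT 6, WT 9, null 14 or null 23, the numbers were 984 of 16675, 791 of 16404, 1321 of 16567, 1024 of 16189 and 963 of 15796.

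Markers of stromal and immune cells differed between the groups beside these values. The mean level of 7 non-epithelial lists (fibroblast, endothelial, smooth muscle and pericyte, macrophage, neutrophil, T cell, B and plasma cell) was 4.06 to 4.47 log2 CPM in the WT and 1.69 to 3.84 in the null tumors (exact two-sided permutation p = 0.0159). Summed fibroblast markers ran from 2283 to 9612 CPM in the WT and from 381 to 4652 CPM in the null tumors, and 12 of 12 had a fold change below 0. Lists outside this mean did not share the direction throughout: 6 of 7 islet, 4 of 6 mesothelial, 3 of 6 Schwann and neural and 4 of 9 acinar markers had a fold change above 0, and 5 of 5 hepatocyte markers below. The mean mesothelial level was nonetheless lower in the null group, at 1.86 against 2.50 log2 CPM. Of 7 transcripts read as signs of RNA quality, the 5 mitochondrial ones had a fold change below 0, and none of the 7 passed an unadjusted p under 0.05. The part of these levels in the results was not tested, beyond the 2 covariate fits given below. In RNA from whole tumors, fewer cells of a type and less RNA per cell cannot be told apart.

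**Figure D2:**
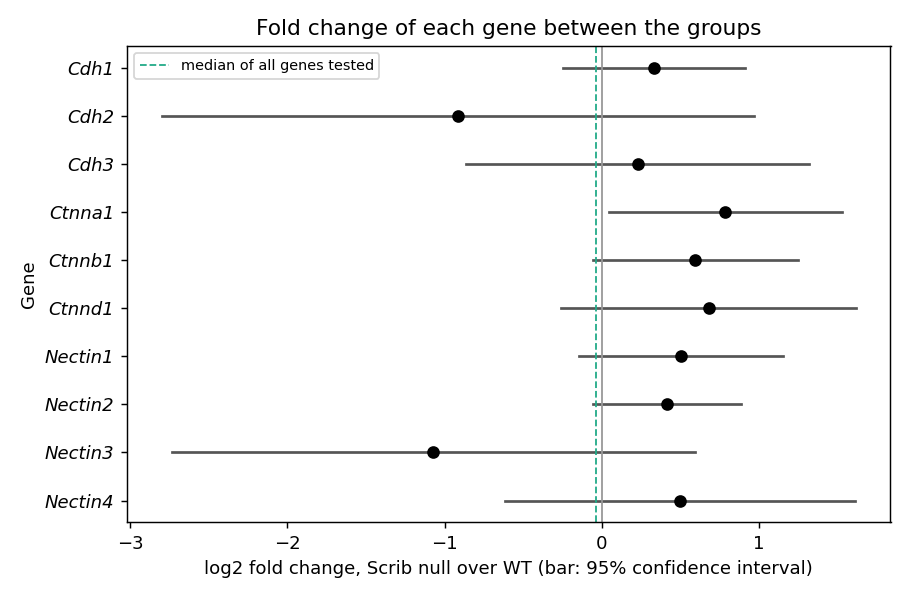
Log2 fold change of each gene, Scrib null over WT, from edgeR, with its 95% confidence interval, and the median of all genes tested as a dashed line at -0.03. The interval of Ctnna1 alone leaves out 0, and the intervals of Cdh2 and Nectin3 are the widest.

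Among the cadherins, Cdh1 encodes E-cadherin, the main cadherin of epithelia (chromosome 8, 106603351 to 106670246, GRCm38). It had 822, 574, 654 and 844 CPM in WT 2, 3, 6 and 9, and 588, 784, 1059, 1048 and 1079.98 CPM in null 7, 14, 15, 18 and 23. Null 15, 18 and 23 stood above every WT tumor, and null 7 and 14 lay within the WT range. The log2 fold change was 0.33 (SE 0.26, edgeR adjusted p = 0.504), with a 95% interval from 0.845-fold to 1.88-fold, so a fall to below 0.845-fold of the WT level lies outside that interval.

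Cdh3, the gene of P-cadherin, lies 46.1 kb before Cdh1 on the same strand (chromosome 8, 106510891 to 106557297). It had 23.2, 35.4, 15.3 and 45.0 CPM in WT 2, 3, 6 and 9, and 24.3, 8.52, 61.7, 39.3 and 40.3 CPM in null 7, 14, 15, 18 and 23. Both the lowest and the highest tumor were in the null group, and the log2 fold change was 0.23 (SE 0.49, edgeR adjusted p = 0.822; 95% interval 0.549-fold to 2.50-fold). Without null 15 it was -0.084. The coefficient of variation was 44.2% and 57.0% in the WT and null groups, against 18.2% and 23.9% for Cdh1.

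Cdh2 encodes N-cadherin, the cadherin of neural and many mesenchymal cells (chromosome 18, 16588877 to 16809246). Its level was 51.9, 2.15, 11.05 and 13.1 CPM in WT 2, 3, 6 and 9, and 1.41, 3.47, 15.4, 15.4 and 15.8 CPM in null 7, 14, 15, 18 and 23. WT 2 held over 3 times the level of any other tumor, and WT 3, null 7 and null 14 were low. The log2 fold change was -0.92 (SE 0.85, edgeR adjusted p = 0.571; 95% interval 0.144-fold to 1.95-fold), and 0.23 without WT 2. WT 2 also had the highest mean level of fibroblast markers, 7.51 log2 CPM, and null 7 the lowest, 3.12. Null 14, 18 and 23 had like fibroblast levels, 5.84, 5.83 and 5.72, with Cdh2 at 3.47, 15.4 and 15.8 CPM. WT 2 was the highest tumor for islet, hepatocyte, Schwann and neural, and macrophage markers as well. Which cells carried Cdh2 RNA was not tested. With the mean non-epithelial level as a covariate the log2 fold change of Cdh2 was 0.93 (SE 1.18, edgeR adjusted p = 0.796), of the opposite sign, and over the 20 alternatives its adjusted p ran from 0.506 to 0.887.

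Within a tumor, a ratio of 2 genes does not depend on how libraries are scaled. The log2 ratio of Cdh1 to Cdh2 counts was 3.98, 7.95, 5.88 and 6.00 in WT 2, 3, 6 and 9, and 8.60, 7.78, 6.10, 6.08 and 6.09 in null 7, 14, 15, 18 and 23, so Cdh1 counts exceeded Cdh2 counts in all 9. WT 2 had the smallest ratio and null 7 the largest, and 5 of the 9 tumors lay between 5.88 and 6.10. The means differed by 0.98 (5.95 ± 1.62 and 6.93 ± 1.19, SD, n = 4 and 5; exact two-sided permutation p = 0.325, 0.521 adjusted over the 8 ratios computed). For Cdh1 to Cdh3 the difference was 0.24 (exact p = 0.746, adjusted 0.853), and null 14, at 6.51, stood apart from null tumors between 4.10 and 4.74.

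The catenins had the highest median log2 fold change of the 3 families, 0.68, with 3 of 3 genes above 0. Ctnna1, alpha-catenin, links the complex to actin (chromosome 18, 35118859 to 35254779). It had 706, 244, 282 and 434 CPM in WT 2, 3, 6 and 9, and 761, 936, 584, 588 and 719 CPM in null 7, 14, 15, 18 and 23. WT 2 fell among the null tumors, and the other WT tumors lay below all of them. The means were 416 ± 209.7 and 718 ± 145 CPM (SD, n = 4 and 5), and the log2 fold change was 0.79 (SE 0.34, edgeR unadjusted p = 0.0397, adjusted p = 0.265; 95% interval 1.03-fold to 2.88-fold). It was above 0 under all 20 alternatives (0.58 to 1.17), with adjusted p from 0.138 to 0.688.

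Ctnnb1, beta-catenin, joins the cadherin tail to alpha-catenin and is also the nuclear effector of Wnt signalling (chromosome 9, 120929216 to 120960507). It had 1187, 546, 679 and 1107 CPM in WT 2, 3, 6 and 9, and 1314, 1404, 1137, 1097 and 1688 CPM in null 7, 14, 15, 18 and 23. WT 3 and WT 6 were low, and WT 2 and WT 9 reached the lower null tumors. Its log2 fold change was 0.59 (SE 0.29, edgeR adjusted p = 0.314; 95% interval 0.961-fold to 2.37-fold).

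Ctnnd1, p120-catenin, keeps cadherins at the membrane (chromosome 2, 84600071 to 84650765). It had 579.7, 159, 318 and 654 CPM in WT 2, 3, 6 and 9, and 378, 575, 731, 1026 and 718 CPM in null 7, 14, 15, 18 and 23. Null 7 and 14 lay within the WT range. Its log2 fold change was 0.68 (SE 0.42, edgeR adjusted p = 0.402; 95% interval 0.837-fold to 3.07-fold). The predicted gene Gm28635, which shares 4482 exonic bases with Ctnnd1 on its strand, was listed at 0 in every tumor. How those reads were shared between the genes was not tested.

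WT 3 and WT 6 were the lowest of the 9 tumors for Ctnna1, Ctnnb1, Ctnnd1 and Nectin1. Among the list genes named below, they were also lowest for Jup, Ctnnal1, Cdh13, Afdn, Pard3, Magi1, Esrp1, Grhl2, Tcf3, Znrf3 and Tcf7. They were not for the other list genes named, such as Arf6, Axin1 and Cdh6. WT 3 and WT 6 were the tumors whose 100 most abundant genes took the largest shares of counts. The part of that share in these results was not tested. Within tumors the log2 ratio to Cdh1 counts was higher in the null group by 0.58 for Ctnna1, 0.34 for Ctnnb1 and 0.49 for Ctnnd1. None of these passed (exact two-sided permutation p = 0.151, 0.254 and 0.190, each 0.508 adjusted over 8 ratios), and the groups overlapped for each. Ctnna1 counts exceeded Cdh1 counts only in null 7 (log2 ratio 0.37) and null 14 (0.26), and were lower in the other 7 tumors.

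**Figure D3:**
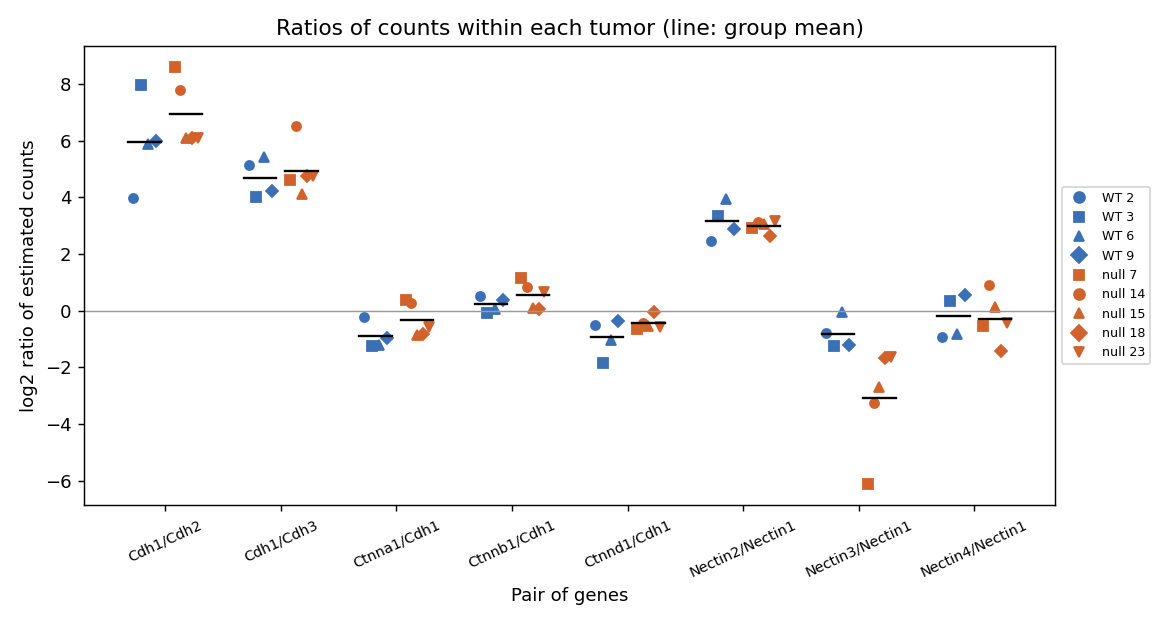
Log2 ratio of the estimated counts of 2 genes within each tumor, blue for Scrib WT and orange for Scrib null, with a line at each group mean. The Nectin3/Nectin1 ratio is the 1 pair of 8 whose groups do not overlap, with null 7 lowest at -6.12.

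Of the nectins, Nectin2, also a ligand of the lymphocyte receptors TIGIT and DNAM-1, was the most abundant (chromosome 7, 19716644 to 19750483). It had 196, 149, 229 and 202 CPM in WT 2, 3, 6 and 9, and 214, 294, 228, 243 and 315 CPM in null 7, 14, 15, 18 and 23. Null 14, 18 and 23 were above every WT tumor. Its coefficient of variation was 17.2% in the WT and 16.8% in the null group, and the log2 fold change was 0.42 (SE 0.21, edgeR adjusted p = 0.323; 95% interval 0.963-fold to 1.85-fold).

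Nectin1, the herpesvirus entry receptor and a partner of Nectin3 and Nectin4, lies on chromosome 9 (43743984 to 43807461). It had 35.4, 14.4, 14.9 and 27.2 CPM in WT 2, 3, 6 and 9, and 28.1, 33.9, 27.3, 38.7 and 34.9 CPM in null 7, 14, 15, 18 and 23. The null tumors kept to a narrow range, with a coefficient of variation of 14.8% against 44.3% in the WT group. The log2 fold change was 0.50 (SE 0.29, edgeR adjusted p = 0.374; 95% interval 0.903-fold to 2.23-fold).

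Nectin4, found mostly in the embryo and in carcinomas, lies on chromosome 1 (171370099 to 171388598). It had 18.6, 18.6, 8.43 and 40.4 CPM in WT 2, 3, 6 and 9, and 19.4, 63.2, 29.7, 14.4 and 25.5 CPM in null 7, 14, 15, 18 and 23. Null 14 was the highest tumor here and the lowest for Cdh3. Its log2 fold change was 0.50 (SE 0.50, edgeR adjusted p = 0.602; 95% interval 0.654-fold to 3.05-fold), 0.049 without null 14 and 1.01 without WT 9. With the epithelial marker level as a covariate it was -0.23, of the opposite sign.

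Nectin3, which pairs with Nectin1 or Nectin2 across contacts, was the nectin with a fold change below 0 (chromosome 16, 46387706 to 46498525). It had 20.4, 5.93, 14.4 and 11.8 CPM in WT 2, 3, 6 and 9, and 0.303, 3.42, 4.18, 11.99 and 11.3 CPM in null 7, 14, 15, 18 and 23. Null 7 was nearly without it, at 6 counts, while null 18 and 23 were level with WT 9. The log2 fold change was -1.07 (SE 0.75, edgeR adjusted p = 0.455; 95% interval 0.150-fold to 1.51-fold), or -0.74 without null 7. With the mean non-epithelial level as a covariate it was 1.15 (SE 1.19, edgeR adjusted p = 0.750), of the opposite sign, and adjusted p ran from 0.328 to 0.750 over the alternatives.

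Relative to Nectin1, Nectin3 counts were lower in every null tumor than in any WT tumor. The log2 ratio was -0.79, -1.26, -0.05 and -1.20 in WT 2, 3, 6 and 9, and -6.12, -3.27, -2.69, -1.68 and -1.62 in null 7, 14, 15, 18 and 23. The means differed by -2.25 (-0.83 ± 0.56 and -3.08 ± 1.84, SD, n = 4 and 5; exact two-sided permutation p = 0.0317), which did not pass adjusted over the 8 ratios (0.254). Without null 7 the difference was -1.49 (exact permutation p = 0.0286, the smallest that 4 against 4 tumors allow, adjusted 0.229). Nectin4 and Nectin2 relative to Nectin1 differed by -0.08 and -0.18 (exact permutation p = 0.897 and 0.603).

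**Figure D4:**
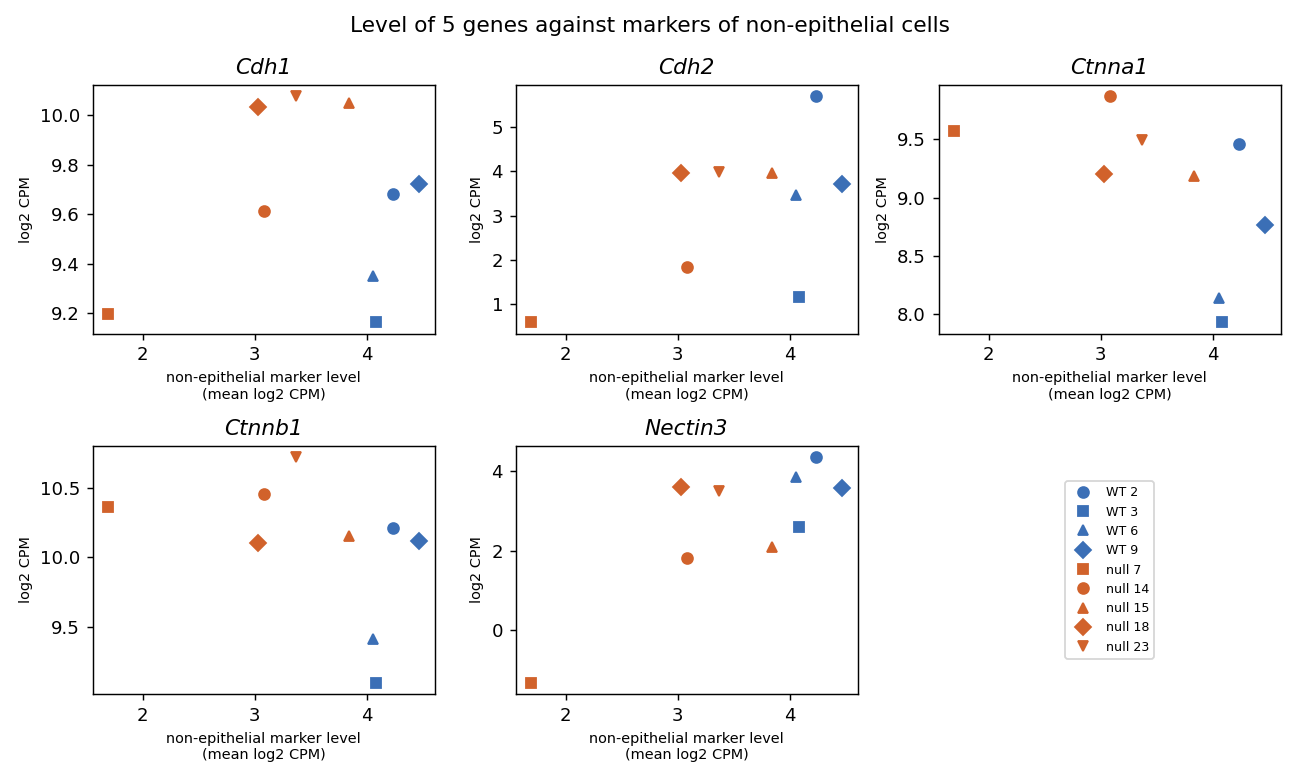
Log2 CPM of Cdh1, Cdh2, Ctnna1, Ctnnb1 and Nectin3 against the mean level of 7 lists of non-epithelial markers (log2 CPM), 1 point per tumor, blue for Scrib WT and orange for Scrib null. Null 7, at a marker level of 1.69, is lowest for Cdh2 and Nectin3 but not for Ctnna1 (761 CPM) or Ctnnb1 (1314 CPM).

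The genes whose levels followed the cadherins most closely were ranked among 12196 others by Pearson correlation over the 9 tumors, after the mean of each group was subtracted. With so few tumors these are descriptions, and all values share the same libraries. For Cdh2 the closest were Vim (r = 0.97, Spearman rho = 0.97), the intermediate filament of mesenchymal cells, then Zbtb46, Pard3b and Sorbs2 (each r = 0.97). For Cdh1 they were Slc36a4 (r = 0.99), Fzd1 (0.99), Cyp26b1 (0.98) and Bicc1 (0.98), and for Cdh3 they were Efna3 (0.97), Ghdc (0.95), Scamp5 (0.95) and Tifa (0.94).

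Other genes of the junction came from lists written for this comparison, and 0 of their members passed over all genes in edgeR. Of 19 other cadherins 7 passed the filter on low counts, 3 with a fold change above 0 and 4 below (median -0.07). Cdh13, which has no cytoplasmic tail, had 102 ± 48.0 and 164 ± 25.9 CPM (log2 fold change 0.69, edgeR adjusted p = 0.296). Cdh6 had 37.5 ± 20.6 and 59.1 ± 25.8 CPM. Cdh11, a cadherin of fibroblasts and osteoblasts, had 58.1 ± 27.0 and 28.1 ± 18.5 CPM, with 1.61 CPM in null 7, the tumor lowest in fibroblast markers. Of 9 catenin relatives 6 passed the filter on low counts, 4 above 0 and 2 below. Plakoglobin, Jup, which can take the place of beta-catenin on the cadherin tail, had 244 ± 125 and 443 ± 59.2 CPM (log2 fold change 0.86, edgeR adjusted p = 0.243), and Ctnnal1 had 18.3 ± 6.11 and 25.9 ± 6.64 CPM. Ctnnbip1, an inhibitor of beta-catenin and TCF, had 33.5 ± 3.30 and 26.8 ± 3.86 CPM (log2 fold change -0.32, edgeR adjusted p = 0.372), and the groups met at 30.12 CPM in WT 9 and 30.11 CPM in null 23.

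Linkers to actin and junction scaffolds were above 0 for 17 of 22 genes, with a median log2 fold change of 0.40, and 5 of the 22 were higher at an unadjusted p under 0.05, beside 7.64% of all genes. Afadin, Afdn, which binds nectins to actin, had 119, 53.3, 71.6 and 106 CPM in WT 2, 3, 6 and 9, and 159, 135, 111, 197 and 157 CPM in null 7, 14, 15, 18 and 23. Only WT 2 reached the null tumors, and the log2 fold change was 0.80 (SE 0.27, edgeR adjusted p = 0.224). The polarity scaffold Pard3 had 52.7 ± 19.6 and 102 ± 15.9 CPM and the scaffold Magi1 63.5 ± 12.5 and 115 ± 34.3 CPM. Both were higher with no overlap, as were 3.42% of all genes (edgeR adjusted p = 0.201 and 0.208). DESeq2 called Pard3 (adjusted p = 0.0349) but none of the 10 genes, where it called 212 of 30346 genes as higher. For Pard3 adjusted p ran from 0.0349 to 0.640 over the 20 alternatives.

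Regulators of cadherin turnover and phosphorylation were above 0 for 16 of 22 genes (median 0.27). Where 7.64% of all genes were higher at an unadjusted p under 0.05, 1 of the 22 was. That was the endocytic GTPase Arf6, with 190.04 ± 40.0 and 274 ± 37.5 CPM (log2 fold change 0.53, edgeR adjusted p = 0.250). Rab11a, which recycles cadherin to the surface, had 201 ± 96.6 and 127 ± 23.3 CPM, with 335 CPM in WT 3. Axin1, a scaffold for beta-catenin degradation, had 66.0 ± 6.12 and 83.3 ± 4.68 CPM with no overlap (edgeR adjusted p = 0.290), beside 3.42% of all genes higher with no overlap.

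Known repressors of Cdh1 and factors of the epithelial state were measured in the same tumors. Among 13 repressors 11 passed the filter on low counts, 8 below 0 and 3 above (median -0.47). Of these 0 were past an unadjusted p under 0.05, where 7.64% of all genes were higher and 10% lower. Prrx1 had 34.0 ± 30.3 and 12.9 ± 6.14 CPM, Snai2 had 2.41 ± 0.63 and 1.19 ± 0.88 CPM, and Tcf3 had 100.4 ± 44.8 and 163 ± 33.3 CPM. The Prrx1 mean of the WT group rested on WT 2, at 76.3 CPM, and its log2 fold change was -1.39, or -0.62 without WT 2. With the mean non-epithelial level as a covariate Prrx1 and Snai2 had fold changes of the opposite sign, 0.29 and 0.093 on the log2 scale. Of 13 epithelial factors 8 were above 0 and 5 below (median 0.22). The list includes the splicing factors Esrp1 and Esrp2 beside transcription factors. Where 7.64% of all genes were higher at an unadjusted p under 0.05, 2 of the 13 were. These were Esrp1, an epithelial splicing factor, at 63.5 ± 19.9 and 129 ± 31.6 CPM with no overlap (edgeR adjusted p = 0.201), and Grhl2, a transcription factor that binds Cdh1, at 29.6 ± 14.8 and 56.6 ± 7.77 CPM (edgeR adjusted p = 0.222). Over all genes 3.42% were higher in the null group with no overlap. DESeq2, which called 212 of 30346 genes as higher, called Esrp1 as well (adjusted p = 0.0302). The adjusted p of Esrp1 ran from 0.0302 to 0.629 over the alternatives. Grhl3 was low, at 0.573 ± 0.534 and 1.36 ± 0.93 CPM.

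Target genes of beta-catenin and TCF divided, 5 above and 6 below 0 (median -0.22). Of the 11, 0 were past an unadjusted p under 0.05, where 7.64% of all genes were higher and 10% lower. Ascl2 had 1.23 ± 0.58 and 0.562 ± 0.284 CPM, the Wnt feedback gene Znrf3 had 9.33 ± 5.40 and 16.2 ± 6.58 CPM, and Tcf7 had 21.3 ± 13.2 and 33.6 ± 11.9 CPM (edgeR adjusted p = 0.320, 0.358 and 0.447).

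**Figure D5:**
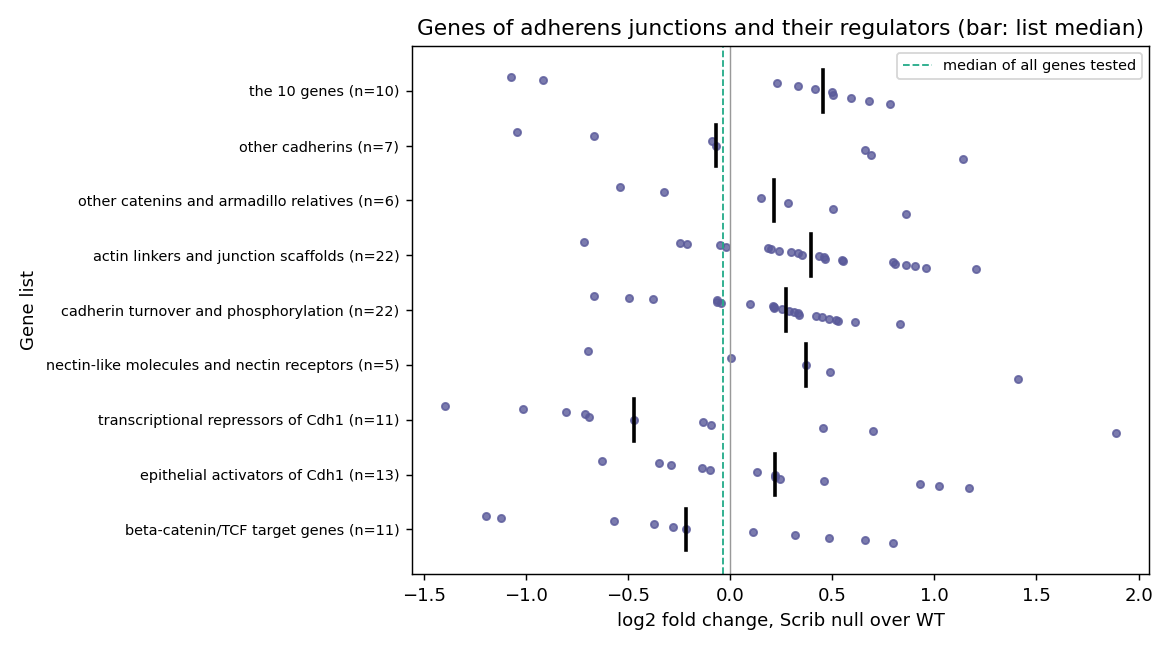
Log2 fold change, Scrib null over WT, of every tested gene in the set of 10 and in 8 lists of junction genes and their regulators, 1 point per gene, with a bar at each list median and the median of all genes tested as a dashed line. The actin linkers and junction scaffolds centre on 0.40 and the repressors of Cdh1 on -0.47, against -0.03 for all genes.

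Among nectin-like molecules and receptors of nectins, 5 of 10 passed the filter on low counts, 4 above 0 and 1 below. The poliovirus receptor Pvr, a relative of the nectins, had 56.3 ± 12.03 and 72.9 ± 20.2 CPM, and the adhesion molecule Cadm1 had 139 ± 77.0 and 195 ± 49.6 CPM (edgeR adjusted p = 0.447 and 0.475). Tigit, the lymphocyte receptor that binds Pvr and several nectins, had 8.60, 3.78, 9.16 and 6.73 CPM in WT 2, 3, 6 and 9, and 13.7, 52.3, 6.09, 10.8 and 11.2 CPM in null 7, 14, 15, 18 and 23. Null 14 alone was far above the rest, and the log2 fold change of Tigit was 1.41 (SE 0.61, edgeR adjusted p = 0.268), or 0.56 without it.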

How the data were processed

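RNA-seq of 9 whole tumors was analysed from the one deposited table, which per the submitters' processing notes was made with Salmon 1.4.0 (DESeq 2 and builds GRCm38 and mm10 are also named) and holds the authors' estimated counts per Ensembl gene, not normalized. The annotation release and whether the libraries kept strand are not given in the sources used here. Genes were named with GENCODE M21 (GRCm38). The members and lists were chosen with earlier results of these data known.

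Expected counts were rounded and filtered with filterByExpr (minimum count 10, minimum total 15). EdgeR 4.0.16 in R 4.3.3 fitted TMM-scaled counts with the group as the only factor over 16169 genes, and genes passed at a Benjamini-Hochberg adjusted p below 0.05. Each standard error is the log2 fold change divided by the square root of F. Log2 CPM used a prior count of 2, as did ratios. The named genes were the 10, Scrib, up to 3 per list with the smallest p and the 4 most like each cadherin. Alternatives used DESeq2 1.42.0, limma 3.58.1 (voom), other scaling, filters and covariates, and left-out tumors. The exact tests of 4 against 5 tumors cannot give a p below 0.00794.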

Additional observations from a re-analysis of the deposited data

Results flagged for a closer look

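In 38 groups of 4 or 5 tumors examined (10 genes, Scrib and 8 ratios), 2 held a tumor far from its group by Dixon's criterion, where chance gives about 1 in 20. Scrib was 102 CPM in null 7, the highest of all 9 tumors, against 36.9 to 55.4 CPM in the other null tumors and 44.1 to 88.5 CPM in the WT tumors. Null 7 was also the lowest tumor for Cdh2, Nectin3 and the mean of non-epithelial markers. The log2 ratio of Cdh1 to Cdh3 counts was 6.51 in null 14, where Cdh3 was 8.52 CPM, against 4.10 to 4.74 in the other null tumors.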

How the results depend on the processing

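None of the 10 genes passed under any of 20 alternatives to the edgeR fit, 2 of them chosen after seeing the data (without both WT 3 and null 7, and female tumors alone). Signs held for Cdh1, the catenins, Nectin1 and Nectin2. With the non-epithelial marker level as a covariate, log2 fold changes of the opposite sign were 0.93 for Cdh2, 1.15 for Nectin3, 1.32 for Cdh11, 0.29 for Prrx1, 0.093 for Snai2 and -0.080 for Pvr; with the epithelial marker level, -0.23 for Nectin4. The causes were not tested. Leaving out 1 tumor at a time gave -1.25 to 0.23 for Cdh2 and -0.084 to 0.50 for Cdh3. For log2 ratios it gave -0.15 to 0.48 for Cdh1/Cdh3, -0.41 to 0.084 for Nectin2/Nectin1 and -0.37 to 0.21 for Nectin4/Nectin1. Nectin4/Nectin1 also differed by 0.18 without both WT 3 and null 7, by 0.11 without WT 3 and by 0.18 without WT 9. In female tumors alone Nectin4/Nectin1 differed by 0.58 and Nectin2/Nectin1 by 0.020. Genes of the 10 that were higher at an unadjusted p under 0.05 (1 in edgeR) numbered 2 with DESeq2 and with the non-epithelial covariate, 3 with limma-voom and with sex as a covariate, and 0 with the epithelial covariate, without both WT 3 and null 7 and in female tumors alone, where 1 was lower, Nectin3. Leaving out 1 tumor gave 0 (without WT 3, 6, 9, null 14 or 23) to 3 (without WT 2). Of all genes tested, 1236 of 16169 were higher at that p in edgeR, 1618 of 30346 with DESeq2 and 1409 of 16169 with limma-voom. With the non-epithelial, sex and epithelial covariates 669, 1172 and 902 of 16169 were. Without both WT 3 and null 7 the number was 792 of 16679, and without WT 2 it was 1786 of 16665. In female tumors alone 491 of 16295 were higher and 749 lower. Over all genes DESeq2 called 212 higher and 413 lower of 30346, against 0 and 2 of 16169 in edgeR. Upper quartile scaling moved the median of all genes to -0.13. No paired analysis was possible because the groups share no replicate numbers. Depth limits Nectin3 most, with 6 counts in null 7.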

Other observations

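Tigit was measured at levels that T cell markers did not match. In null 14 Tigit had 52.3 CPM, while the 9 T cell markers listed came together to 5.10 CPM. Cd3e had 0.645 ± 0.254 and 0.376 ± 0.354 CPM in the WT and null groups (SD, n = 4 and 5). Cd96, Cd226 and Crtam, other lymphocyte receptors of nectins and nectin-like molecules, did not pass the filter on low counts, at group means of 0.0554 to 0.171 CPM. The cells that carried Tigit RNA were not identified.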
